A study of Mus musculus with 12 samples.

Results

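Tbx2 and Tbx4 are neighbouring T-box genes on mouse chromosome 11, and they were taken from the expression table by their gene names, giving 2 of the 99 genes in the table. The table holds RNA sequencing of 12 libraries, 3 independent cultures each of skin fibroblasts (Fibs), induced pluripotent stem cells (iPSCs), induced mesenchymal stem cells (iMSCs) and bone marrow mesenchymal stem cells (BMSCs). The study asked how close the iMSCs are to BMSCs and how far they had moved from the Fibs and iPSCs they came from. Each gene has a value in FPKM (fragments corrected for the length of the transcript and the depth of the library) and a count in every library. The table holds only part of the genes, with 0.36% to 0.48% of the counts of each library as implied by counts and FPKM. Shares of genes called, adjusted p-values, scaling shifts, most alike genes and nearest genes below therefore refer to these genes only.

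Fibs carry the genotype label WT and were grown from ear skin of female C57BL/6 mice. BMSCs also carry the label WT and were grown from the marrow cavity of the mouse femur. iPSCs, labelled Reprogramming, were made from Fibs with Sendai virus carrying the reprogramming factors, were picked as colonies and were kept on an inactivated feeder layer with LIF. iMSCs share the label Reprogramming and were made from embryoid bodies of iPSCs with 10 ng/ml TGF-beta1 and 5 ng/ml bFGF. How many iPSC lines stand behind the 3 iPSC and 3 iMSC cultures is not stated in the sources used here. Each library is a whole culture, in which fewer cells of a type and less RNA per cell cannot be told apart.

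T-box genes encode transcription factors that bind DNA through a shared domain, the T-box, and that act in the patterning of the embryo. Tbx4 is best known for its part in the outgrowth of the hindlimb and in the mesenchyme of the lung. Tbx2 is a repressor of transcription that acts in the heart, the limb and other organs and can hold back cell cycle inhibitors. The neighbours go back to a tandem duplication of an ancestral gene, and the pair has stayed linked in vertebrates.

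Tbx2 (ENSMUSG00000000093) lies at chr11:85832551-85841948 and Tbx4 (ENSMUSG00000000094) at chr11:85886422-85916097, both on the plus strand. These are the positions in the table, and they match the GENCODE M21 annotation on GRCm38. The gap between the 2 genes is 44.5 kb, and their starts are 53.9 kb apart, with 1 annotated gene model, Gm11444, in between, which was not analysed here. GENCODE M21 lists 1 transcript of Tbx2 with 7 exons and 3626 bases, and 3 transcripts of Tbx4 with 7 to 9 exons and 2959 to 3153 bases.

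Because close copies can share reads, the most alike coding stretch of 90 bases within 1 exon of each gene is shown here. It comes from exon 1 of Tbx2 (chr11:85833412-85833501) and exon 3 of the longest Tbx4 transcript (chr11:85890862-85890951), both read from the GRCm38 plus strand, and capitals mark the bases that differ.
Tbx2: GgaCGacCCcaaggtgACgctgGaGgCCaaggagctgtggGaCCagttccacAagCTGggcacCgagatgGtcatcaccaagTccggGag
Tbx4: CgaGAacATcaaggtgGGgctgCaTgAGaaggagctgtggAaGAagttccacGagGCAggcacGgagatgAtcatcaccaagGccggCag
Of the 90 bases 68 were identical, or 75.6%, and 22 differed, spread through the stretch. The longest run of bases shared by the 2 genes anywhere in their transcripts was 12 bases, in each of the 3 Tbx4 transcripts.

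The library totals implied by the counts and FPKM values were 66116449 to 77355177 counts. Low counts in the table mostly moved in steps of 4, so 4 counts were read as about 1 fragment, which puts the totals at 16529112 to 19338794 fragments. The table holds few markers of the labelled cell types. Cdh1 (E-cadherin), the 1 of 12 listed pluripotency markers in the table, was at 131.5 to 142.9 FPKM in iPSCs and at most 0.672 in the other libraries. The 2 of 18 listed mesenchymal markers in the table, Itga5 (an integrin of fibronectin binding) and Cav2 (caveolin 2), summed to 49.9 to 52.2 FPKM in Fibs, 57.8 to 62.2 in iPSCs, 86.0 to 181.6 in iMSCs and 68.6 to 71.0 in BMSCs. Itga5 made up most of this sum, while Cav2 alone was highest in Fibs (mean 13.8 FPKM) and lowest in iPSCs (mean 1.72 FPKM). Of the 8 leukocyte markers, 3 were in the table, and their sum was at most 1.28 FPKM in any library. The 2 of 8 epithelial markers in the table, Cdh1 and Gpa33, summed to at least 161.3 FPKM in iPSCs and at most 0.700 elsewhere. Acvrl1, the 1 of 5 endothelial markers, was at 15.7 to 28.1 FPKM in Fibs, where Tbx2 was highest, and at 1.59 to 11.8 in the other libraries. The part of such cells in the results on Tbx2 and Tbx4 was not tested. iMSC replicate 2 stood apart from the other iMSC libraries, with a chi-square per degree of freedom of 116.3 and 129.6 against them on counts divided by 4, while all other replicate pairs were between 3.24 and 9.77. The tests with iMSCs are therefore given with and without it.

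Tbx4 was high in the mesenchymal stem cells of both origins and low in Fibs and iPSCs. In BMSCs its FPKM was 7.40, 7.34 and 7.06, and the mean was 7.27 ± 0.181 (SD, n = 3). In iMSCs it was 7.55, 4.68 and 8.90, with a mean of 7.04 ± 2.15 (SD, n = 3). The iMSC libraries lay on both sides of the BMSC libraries, and the lowest of them was replicate 2. Without it the iMSC mean was 8.22 ± 0.957 (SD, n = 2), and both remaining iMSC libraries were above all BMSC libraries.

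In iPSCs the Tbx4 FPKM was 2.00, 1.76 and 1.57, with a mean of 1.78 ± 0.220 (SD, n = 3). In Fibs it was 1.47, 0.945 and 0.922, with a mean of 1.11 ± 0.309 (SD, n = 3). Every iMSC and BMSC library was above every iPSC and Fib library, and the lowest iPSC library was above the highest Fib library. The counts behind these values were 221 to 487 in Fibs and iPSCs and 1125 to 2193 in iMSCs and BMSCs.

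Tbx2 was weakly expressed in every library, under 1 FPKM in all 12. In Fibs its FPKM was 0.586, 0.328 and 0.281, with a mean of 0.398 ± 0.164 (SD, n = 3). In BMSCs it was 0.0146, 0.0890 and 0.0571, with a mean of 0.0536 ± 0.0373 (SD, n = 3). All 3 Fib libraries were above all 3 BMSC libraries.

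In iPSCs the Tbx2 FPKM was 0.295, 0.105 and 0.163, with a mean of 0.188 ± 0.0977 (SD, n = 3). In iMSCs it was 0.387, 0.0147 and 0.258, with a mean of 0.220 ± 0.189 (SD, n = 3). The iMSC libraries spanned most of the range of the series, since replicate 2 was as low as the lowest BMSC library while the others lay among the Fibs and iPSCs. Without replicate 2 the iMSC mean was 0.322 ± 0.0911 (SD, n = 2).

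The Tbx2 values rest on few molecules. Its counts summed to 303 over the 3 Fib libraries, 165 over iMSCs, 152 over iPSCs and 43 over BMSCs. At 4 counts each these are about 76, 41, 38 and 11 fragments. BMSC replicate 1 and iMSC replicate 2 each had 4 counts, about 1 fragment, and the exact 95% counting interval of the FPKM in BMSC replicate 1 was 0.000371 to 0.0816. In Fib replicate 1, with 146 counts or about 36 fragments, it was 0.405 to 0.800. These intervals were computed on fragments, at 4 counts each, and cover counting error only.

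**Figure D1:**
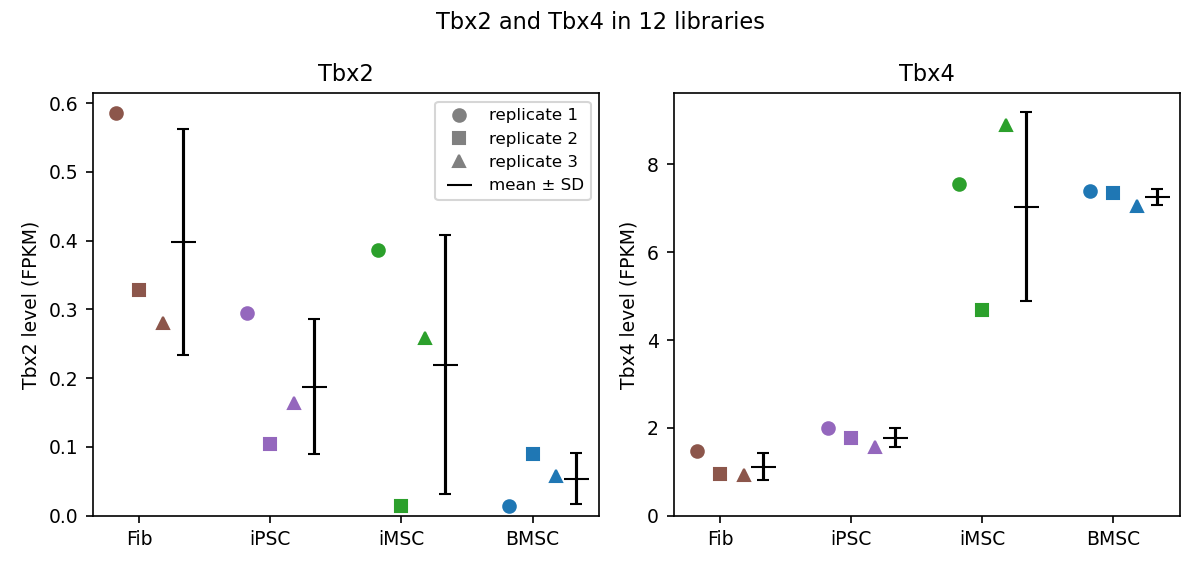
Level of Tbx2 (left) and Tbx4 (right) in FPKM, by cell type, with 1 point per library and the mean ± SD (n = 3) beside the points. The 6 iMSC and BMSC libraries lie between 4.68 and 8.90 for Tbx4, above all Fib and iPSC libraries, while the BMSC libraries are lowest for Tbx2 apart from iMSC replicate 2.

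Ordered by mean FPKM, Tbx4 ran from BMSCs through iMSCs and iPSCs to Fibs, and Tbx2 ran from Fibs through iMSCs and iPSCs to BMSCs. With all libraries the 2 genes thus had opposite cell types at their ends, but the Tbx4 means of BMSCs (7.27) and iMSCs (7.04) were close. Once iMSC replicate 2 was left out, the iMSC mean of Tbx4 (8.22) was the highest. Fibs then still had the lowest mean of Tbx4 and the highest of Tbx2. For Tbx4 the difference among the 4 cell types was larger than the spread between cultures, with p = 0.00117 in the exact permutation test of the F statistic on log2(FPKM + 1) over all 15400 ways to divide the 12 libraries, and p = 6.49e-05, the smallest this test can give, without iMSC replicate 2. For Tbx2 the same exact test gave p = 0.0838, and it gave p = 0.0167 without iMSC replicate 2.

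All 6 pairs of cell types were tested on the counts by the quasi-likelihood test of edgeR, over the 90 genes with at least 10 counts in at least 3 libraries. A call needed a p under 0.05 after Benjamini-Hochberg adjustment and a log2 fold change beyond 1 in size, and comparisons that share a cell type share its libraries. In BMSCs against Fibs, the most direct contrast of the 2 genes, Tbx4 was higher and Tbx2 was lower in BMSCs. Tbx4 was 6.51-fold higher (log2 fold change 2.70, SE 0.19, adjusted p = 3.8e-06 in edgeR's quasi-likelihood test). Tbx2 was 7.18-fold lower (log2 fold change -2.84, SE 0.73, adjusted p = 0.00763, edgeR). In this comparison 23.3% of the tested genes were called, 6.67% higher, like Tbx4, and 16.7% lower, like Tbx2.

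In BMSCs against iPSCs, Tbx4 was higher in BMSCs, 4.08-fold by the fit (log2 fold change 2.03, SE 0.12, adjusted p = 1.13e-06, edgeR). Tbx2 was lower in BMSCs, 3.40-fold by the fit (log2 fold change -1.77, SE 0.71, adjusted p = 0.0492, edgeR), and the libraries did not overlap. Calls were common here, at 52.2% of the tested genes, 16.7% higher and 35.6% lower. The Tbx2 call was close to the threshold and was kept in only 3 of 15 alternatives, with adjusted p from 0.0173 to 0.194 in those 15. It was lost with TMM or median-ratio scaling, without a filter and in 1 fit of all libraries. The call was also lost with a replicate block (log2 fold change -1.76, adjusted p = 0.157, edgeR), and without BMSC replicate 1 or 3 or any 1 of the iPSC replicates. With limma it missed only the fold threshold, at -0.17 on log2(FPKM + 1) (adjusted p = 0.0404) and -0.88 on log2(FPKM + 0.1) (adjusted p = 0.0173).

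In iMSCs against Fibs, the cells at the start of the reprogramming, Tbx4 was higher in iMSCs. The difference was 6.31-fold (log2 fold change 2.66, SE 0.33, adjusted p = 0.00203, edgeR), in a comparison in which 34.4% of the tested genes were called, 11.1% higher and 23.3% lower. Tbx2 did not pass the test, with a log2 fold change of -0.86 (95% interval -3.26 to 1.54, adjusted p = 0.523, edgeR). Without iMSC replicate 2 the values were 2.88 for Tbx4 (adjusted p = 4.06e-05, edgeR) and -0.31 for Tbx2 (adjusted p = 0.646).

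In iMSCs against iPSCs, the step of induced differentiation, Tbx4 was higher in iMSCs 3.96-fold by the fit (log2 fold change 1.98, SE 0.27, adjusted p = 0.000789, edgeR). In this comparison 52.2% of the tested genes were called, 14.4% higher and 37.8% lower. Tbx2 did not pass the test, with a log2 fold change of 0.22 (95% interval -2.19 to 2.63, adjusted p = 0.865, edgeR), and its libraries overlapped. Without iMSC replicate 2 the log2 fold change was 2.21 for Tbx4 (adjusted p = 3.56e-06, edgeR) and 0.77 for Tbx2 (adjusted p = 0.263).

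In iMSCs against BMSCs neither gene passed the test, in a comparison in which 5.56% of the tested genes were called. Those 5 genes, named here after their values were seen, were Slfn4, Cdh1, Scml2, Mcts1 and Galnt1. The count was 0 without BMSC replicate 3, 1 without BMSC replicate 1 or 2 or with a replicate block, 2 and 3 without iMSC replicate 3 and 1, and 8 without iMSC replicate 2. For Tbx4 the log2 fold change was -0.045 (95% interval -0.60 to 0.51, adjusted p = 0.936, edgeR), an interval far narrower than that of Tbx2. For Tbx2 it was 1.98 with a wide interval (95% interval -0.80 to 4.78, adjusted p = 0.310, edgeR). Without iMSC replicate 2, Tbx2 was higher in iMSCs than in BMSCs, at a log2 fold change of 2.53 (SE 0.83, adjusted p = 0.0243, edgeR). Of the 15 alternatives to the test with all libraries, this was the 1 in which Tbx2 was called. It had the smallest adjusted p of the 15, and the largest was 0.671 (edgeR with a replicate block). Tbx4 without iMSC replicate 2 was at 0.18 (adjusted p = 0.178, edgeR).

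In iPSCs against Fibs neither gene passed the test, although 56.7% of the tested genes were called. For Tbx4 the log2 fold change was 0.67 (95% interval -0.014 to 1.36, adjusted p = 0.0644, edgeR), and the libraries did not overlap. For Tbx2 it was -1.08 (95% interval -2.41 to 0.25, adjusted p = 0.108, edgeR), and the highest iPSC library lay within the Fib range. Scaling bears on the comparisons with iPSCs, since TMM moved the median log2 fold change of all tested genes by -0.45 for iPSCs against Fibs, 0.39 for iMSCs against iPSCs and 0.37 for BMSCs against iPSCs. Under TMM the log2 fold changes of iPSCs against Fibs were 0.23 for Tbx4 (adjusted p = 0.498, edgeR) and -1.50 for Tbx2 (adjusted p = 0.0467, edgeR), the latter past the threshold. For Tbx4 this was the largest adjusted p of 17 alternatives, and the smallest was 0.0108 (edgeR, without Fib replicate 1). Tbx4 was called in 0 of the 17, because its log2 fold change stayed between 0.23 (TMM) and 0.93 (without Fib replicate 1), under the fold threshold. The adjusted p was under 0.05 in some of the 17, such as 0.0191 with DESeq2, and over it in others. The count of 0 thus does not show that iPSCs and Fibs had the same level.

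**Figure D2:**
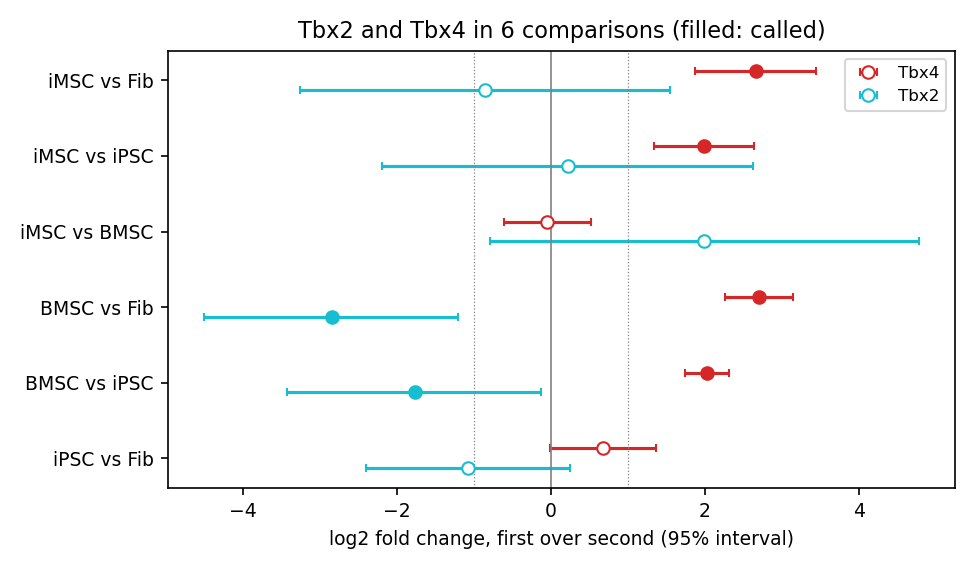
Log2 fold change of Tbx4 (red) and Tbx2 (blue) in the 6 comparisons of cell types, first over second, with the 95% interval from edgeR, dotted lines at -1 and 1, and filled points for called genes. Tbx4 is called in 4 comparisons and Tbx2 in 2, and in BMSCs against Fibs and against iPSCs the 2 genes lie on opposite sides of 0.

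Within each library the balance between the neighbours was taken as the ratio of their FPKM values. The ratio of Tbx4 to Tbx2 was 2.51, 2.88 and 3.29 in Fibs and 6.79, 16.8 and 9.58 in iPSCs. It was 19.5, 317.6 and 34.5 in iMSCs and 505.2, 82.5 and 123.7 in BMSCs. Tbx4 was thus the higher of the neighbours in all 12 libraries, and the ratio did not overlap between Fibs, iPSCs and the 2 mesenchymal groups, which overlapped each other. The ratios of 317.6 and 505.2 each stand on 4 counts of Tbx2.

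On the scale of log2(FPKM + 1), where a weak gene counts for little, the mean log2 ratio was 0.59 ± 0.045 (SD, n = 3) in Fibs and 1.23 ± 0.090 in iPSCs. It was 2.69 ± 0.25 in iMSCs and 2.97 ± 0.066 in BMSCs. The ratio differed among the 4 cell types beyond the spread between cultures, with p = 0.000195 in the exact permutation test of the F statistic, and with p = 0.00026 without iMSC replicate 2, where the iMSC mean was 2.80 ± 0.25 (SD, n = 2). With a pseudocount of 0.1, which gives Tbx2 more weight, the exact p was 0.00013. Of the 6 pairs, 5 gave p = 0.1, the smallest that an exact two-sided permutation test of 3 against 3 allows, and the adjusted p was 0.12, while iMSCs against BMSCs gave an exact p of 0.3.

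**Figure D3:**
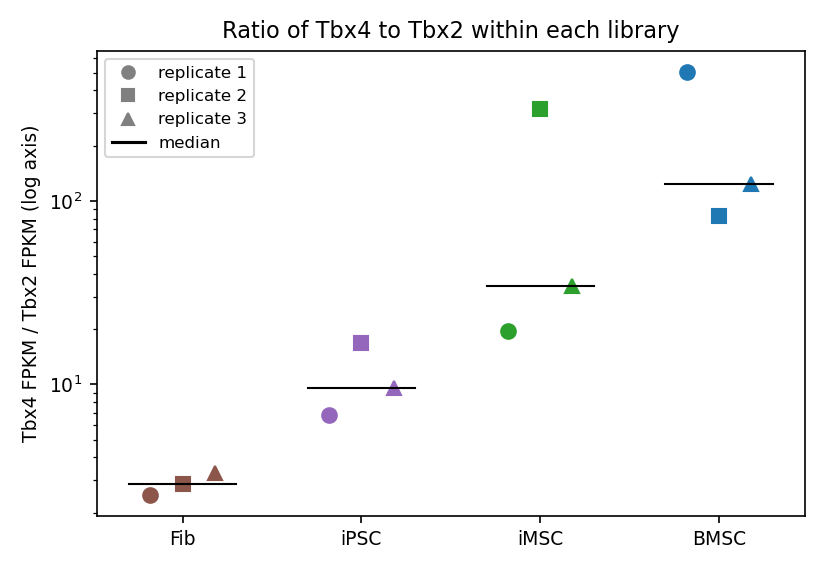
Ratio of Tbx4 FPKM to Tbx2 FPKM in each of the 12 libraries, by cell type, on a log axis, with the median of each cell type as a line. The median is 2.88 in Fibs, 9.58 in iPSCs, 34.5 in iMSCs and 123.7 in BMSCs.

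The genes most like each neighbour were found by the root mean square difference of log2(FPKM + 1), centred on the mean of each gene, over the 12 libraries. For Tbx4 these were Pemt (0.69), the small GTPase gene Rem1 (0.71), Itga5 (0.72) and Mnt (0.72), against a median of 1.03 over the other tested genes. Pemt, an enzyme that makes phosphatidylcholine in the liver, was at a mean of 2.03 ± 0.736 FPKM (SD, n = 3) in iMSCs, 1.30 ± 0.396 in BMSCs, 0.833 ± 0.286 in iPSCs and 0.575 ± 0.140 in Fibs. It shared with Tbx4 the higher means in iMSCs and BMSCs, but within a narrower range, and its highest library was iMSC replicate 2, where Tbx4 was lowest among the iMSCs. Over the 4 cell type means of log2(FPKM + 1), Pearson's r with Tbx4 was 0.91 for Pemt and 0.88 for Mnt, an antagonist of Myc, both also in the top 4 by that measure with Gna12 and Brat1. Without iMSC replicate 2, 3 of the 4 genes most like Tbx4 were the same, and Mx1 stood in place of Mnt.

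For Tbx2 the most alike genes were Clec2g (0.14), Grasp (0.16), Drp2 (0.17) and Nalcn (0.19), against a median of 0.51. Clec2g, a C-type lectin gene, was at 0.226 to 0.310 FPKM in Fibs, was listed at 0 in all 3 BMSC libraries and was at most 0.0560 in iPSCs and iMSCs. It thus shared with Tbx2 the highest values in Fibs. Nalcn, a sodium leak channel, was at most 0.0285 FPKM in any library, so it hardly varied on this scale. Tbx2 itself varied little there, so a gene that hardly varies can score about as low as Nalcn (0.19). The scores of Grasp (0.16) and Drp2 (0.17) were close to that, and by themselves they do not show a pattern shared with Tbx2. Grasp, a scaffold protein gene, was at 6.98 to 10.2 FPKM, and Drp2, a relative of dystrophin, at 0.135 to 0.568, and both had their highest means in Fibs. Drp2 was next highest in BMSCs (mean 0.390 FPKM), where Tbx2 was lowest. Without iMSC replicate 2, 3 of the 4 were the same, and Klf6 stood in place of Nalcn. Only Clec2g was also among the top 4 by Pearson's r over the 4 cell type means (0.87), while r was 0.65 for Grasp, 0.46 for Nalcn and 0.34 for Drp2. These values describe 12 libraries that share their cell types and depth.

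**Figure D4:**
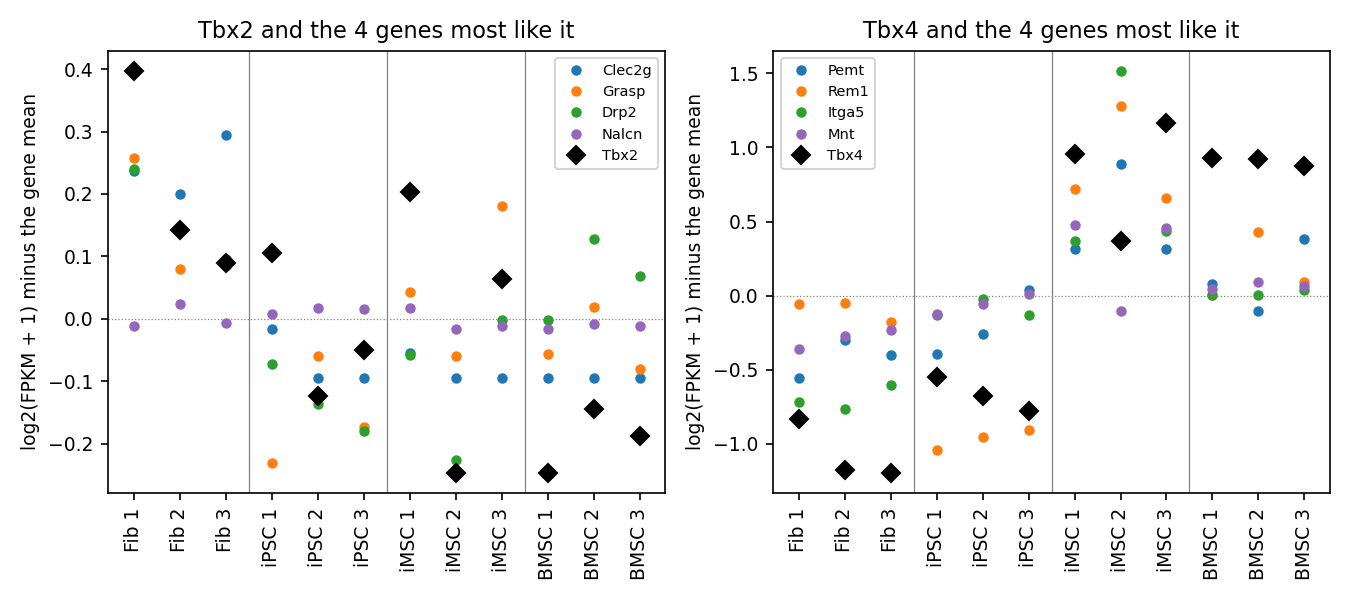
Log2(FPKM + 1) minus the mean of the gene in each of the 12 libraries, for Tbx2 (left, black diamonds) and Tbx4 (right, black diamonds) and the 4 genes most like each by root mean square difference. The Tbx4 points are above 0 in all iMSC and BMSC libraries and below 0 in all others, and in iMSC replicate 2 they lie under those of Pemt, Rem1 and Itga5.

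On chromosome 11 the other tested genes were far away. Before Tbx2 the nearest were Slfn4 at 2.64 Mb, Mnt at 10.99 Mb and Alox12 at 15.58 Mb, and after Tbx4 they were Scpep1 at 3.01 Mb, Trim25 at 3.08 Mb and Dgke at 3.12 Mb. In BMSCs against Fibs none of these 6 was called higher in BMSCs, as Tbx4 was, and 2 were called lower, as Tbx2 was, namely Slfn4, of a gene family with similar copies whose shared reads were not tested here, and Dgke, a lipid kinase gene (log2 fold change -1.50, adjusted p = 0.000791, edgeR). In iMSCs against Fibs 0 of the 6 were called higher and 2 lower, and in iMSCs against iPSCs 0 were called higher and 3 lower. Over all tested genes 6.67%, 11.1% and 14.4% were called higher in these comparisons and 16.7%, 23.3% and 37.8% lower. With 6 genes, neither the counts of 0 higher nor the counts lower were read as particular to the neighbours. Without iMSC replicate 2 the counts were 0 higher and 1 lower against Fibs, and 1 higher and 3 lower against iPSCs. With all libraries, in each of these 3 comparisons 1 of the 6 was higher at an adjusted p under 0.05 in edgeR but under the fold threshold. Lower at an adjusted p under 0.05 in edgeR, whatever the fold, were 4, 2 and 3 of the 6. DESeq2 and limma also called 0 higher, while limma on log2(FPKM + 1) called 0, 1 and 2 lower in the 3 comparisons. Tbx4 was called higher in all 3.

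Tbx2 and Tbx4 were the 2 of 17 listed T-box genes in the table. Of 41 listed genes of limb and regional patterning 3 were tested, too few to set against the share of all tested genes called. That share was 23.3% in BMSCs against Fibs and 52.2% in BMSCs against iPSCs. In BMSCs against Fibs 1 of the 3 was called, Sox9, the regulator of cartilage formation, which was lower in BMSCs (log2 fold change -1.37, adjusted p = 1.17e-07, edgeR). The median log2 fold change of the list was -0.19 beside -0.058 over all tested genes. In BMSCs against iPSCs Sox9 was called higher (log2 fold change 4.77) and Lhx2, a LIM homeobox factor, lower (-1.39, adjusted p = 0.00799, edgeR), while the Polycomb gene Scmh1 was at 0.60, under the fold threshold, and the median was 0.60 beside -0.38. Sox9 therefore went with Tbx4 against iPSCs and with Tbx2 against Fibs.

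Among 3 tested genes of the cell cycle list, in BMSCs against Fibs 1 was called higher and 1 lower. Over all tested genes 6.67% were called higher and 16.7% lower there, and 3 genes are too few to set against these shares. Cdc45, a replication factor, was higher (log2 fold change 2.93, adjusted p = 1.26e-07, edgeR), as Tbx4 was. Ccnd2, which encodes cyclin D2, was lower (-2.19, adjusted p = 1.26e-09, edgeR), as Tbx2 was, and Mnt was at 0.39, under the fold threshold. In BMSCs against iPSCs 0 of the 3 were called by edgeR, DESeq2 or limma, where edgeR called 52.2% of all tested genes. Of the 3, 1 had an adjusted p under 0.05 and missed only the fold threshold (Cdc45, log2 fold change -0.95, adjusted p = 6.87e-06, edgeR). The medians of the list were 0.39 and -0.095 in the 2 comparisons.

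Signalling genes with known parts in the limb were few in the table, and their counts stand beside 23.3% of all tested genes called in BMSCs against Fibs (6.67% higher, 16.7% lower) and 52.2% in BMSCs against iPSCs (16.7% higher, 35.6% lower). Of the Wnt list 3 were tested, the ligands Wnt3 and Wnt9a and the feedback gene Axin2, and 0 were called in BMSCs against Fibs by edgeR, DESeq2 or limma, with 0 at an unadjusted p under 0.05 in edgeR (median -0.22), while 3 were called lower in BMSCs against iPSCs (median -1.65). Of the BMP and TGF-beta list 2 were tested, the type I receptors Acvr1b and Acvrl1, and both were called lower in BMSCs against Fibs (median -1.48), while 1 was called higher in BMSCs against iPSCs (median 0.92). Of the FGF list 1 was tested, Fgf23, a hormone of bone that acts on phosphate, which was called lower in BMSCs than in Fibs and higher than in iPSCs. Of 5 tested genes of cell contact, 0 were called in BMSCs against Fibs by edgeR, DESeq2 or limma (median -0.36). Itga5 (0.72, adjusted p = 2.07e-06, edgeR) and Cav2 (-0.87, adjusted p = 5.13e-05, edgeR) missed only the fold threshold there. In BMSCs against iPSCs 1 of the 5 was called higher and 2 lower (median -0.33).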

How the data were processed

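RNA of 12 cultures, 3 for each of the 4 cell types, was sequenced. The submitters' processing notes name cutadapt 1.9, HISAT2 2.0.4, StringTie 1.3.4d, DESeq2, edgeR and mm9, and the methods name StringTie and Ballgown for FPKM. The authors deposited FPKM values, already scaled for length and depth, and counts without normalization. How these were counted, and with which strand setting, is not stated in the sources used here. Of 77 counts from 1 to 13, 61 were 4, 8 or 12. Coordinates of 85 of the 99 genes equal those of GENCODE M21 on GRCm38, which supplied the sequences.

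Library totals were computed from count, FPKM and transcript length of 6 genes with 1 transcript, and agreed within 0.0924%. For Tbx4 the length implied by count and FPKM was 3402 to 3420 bases, longer than its annotated transcripts but alike in all libraries. Counts were tested in R 4.3.3 with edgeR 4.0.16 (glmQLFit, glmQLFTest, these totals, prior count 0.125), each pair of cell types in its own fit, with Benjamini-Hochberg adjustment over the 90 genes tested. The filter, at least 10 counts in at least 3 libraries, was chosen after the table was seen, because Tbx2 was under 1 FPKM throughout. The edgeR step was tested on simulated data. Levels and ratios were tested by exact permutation in Python 3.11.15 with a pseudocount of 1, two-sided for pairs.

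Alternatives were TMM and median-ratio scaling, other filters, DESeq2 1.42.0, limma 3.58.1 on log2 FPKM, 1 fit of all 12 libraries, counts divided by 4, a replicate block and leaving out each library in turn. A filter of at least 1 FPKM, and the likeness, neighbour counts and iMSC ratio without iMSC replicate 2, were added after seeing the data. p-values measure the spread between these cultures. Genes were named by rule: the 2 members, the 4 genes most like each, up to 3 tested genes on each side on chromosome 11, and tested members of the 7 lists described. The members and lists were chosen with earlier results of these data known. No column of the table was left unmapped.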

Additional observations from a re-analysis of the deposited data

How the results depend on the processing

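Tbx4 kept its direction and its call in all 17 alternatives in iMSCs against Fibs, iMSCs against iPSCs, BMSCs against Fibs and BMSCs against iPSCs, and the exact tests over 4 cell types of Tbx4 and of the ratio stayed past 0.05. Tbx2 in BMSCs against Fibs was called in 14 of 15 alternatives, the exception being limma on log2(FPKM + 1), where its log2 fold change was -0.40 (adjusted p = 0.00742), since a pseudocount of 1 holds a gene under 1 FPKM to small changes. With at least 1 or 5 FPKM required, Tbx2 is not tested and no value can be given. Tbx2 at under 100 counts in most libraries limits what its comparisons can show.

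The Tbx2 call in BMSCs against iPSCs was lost with TMM (-1.41), median-ratio scaling (-1.49), no filter (-1.77), limma with a pseudocount of 1 (-0.17) or 0.1 (-0.88) and all 12 libraries in 1 fit (-1.77). With limma the adjusted p was 0.0404 and 0.0173, so only the fold threshold was missed. The log2 fold change ran from -2.30 to -1.29 when 1 library was left out. In iPSCs against Fibs, Tbx2 passed with TMM (-1.50), median-ratio scaling (-1.51) and without iPSC replicate 1 (-1.56), and ran from -1.56 to -0.69 over the libraries left out. In iMSCs against BMSCs the log2 fold change of Tbx2 ran from 1.30 to 2.53 when 1 library was left out, with 2.53 without iMSC replicate 2, and was 0.20 and 0.85 with limma and a pseudocount of 1 and 0.1. That of Tbx4 ran from -0.25 to 0.18 over the libraries left out, with 0.0060 under median-ratio scaling. In iMSCs against iPSCs, Tbx2 turned to -0.031 with limma and a pseudocount of 0.1, and ran from -0.46 to 0.77 over the libraries left out. The F statistic of Tbx2 over 4 cell types was 3.38, and 6.62 without iMSC replicate 2. The cause of these changes was not tested.

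The replicate numbers are no pairing given by the labels, and 4 of 18 same-numbered pairs deviated together with a correlation over 0.1 (range -0.37 to 0.42). Differently numbered pairs passed 0.1 as well, so this count alone does not show a pairing. With a replicate block, Tbx2 was at -1.76 in BMSCs against iPSCs (adjusted p = 0.157, edgeR) and at -0.36 in iMSCs against iPSCs, and 1 gene was called in iMSCs against BMSCs. Of the member values, 174 of 198 kept their direction and side of the threshold over all alternatives.

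The number of genes called also moved. With at least 5 FPKM, which left 57 genes, it was 31 in iMSCs against iPSCs, 3 in iMSCs against BMSCs, 12 in BMSCs against Fibs, 25 in BMSCs against iPSCs and 29 in iPSCs against Fibs. With limma on log2(FPKM + 1) it was 18 in iMSCs against Fibs, 3 in iMSCs against BMSCs, 10 in BMSCs against Fibs and 31 in BMSCs against iPSCs, and with DESeq2 it was 8 in iMSCs against BMSCs. Leaving out 1 library gave 18 to 28 in iMSCs against Fibs, with 18 without Fib replicate 1 or 2, and 0 to 8 in iMSCs against BMSCs. The calls in the main setting were 13 higher and 34 lower in iMSCs against iPSCs, 31 and 20 in iPSCs against Fibs, and 2 and 3 in iMSCs against BMSCs, and median-ratio scaling gave 18 and 24, 24 and 25, and 4 and 2. Of the 4 genes most like each member, Pearson's r over cell type means kept 1 for Tbx2 and 2 for Tbx4.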
